A study of Mus musculus with 138 samples.

Results

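The 10 genes described here are Pecam1, Cdh5, Emcn, Cldn5, Kdr, Tek, Egfl7, Vwf, Plvap and Gpihbp1. They are used as markers of endothelial cells, which line blood vessels. In the single-cell data below, Tek and other members, among them Pecam1 and Cdh5, were also counted in other cells. The 10 genes were chosen by name from 55487 genes in the count tables. The rule used no measured value, but earlier results of these data were known. All 10 passed the filter on low counts that left 19768 genes for testing. The study used laser-capture microdissection to isolate regions of 4 skull sutures from wild-type C57BL/6J mouse embryos of 2 stages, E16.5 and E18.5, and measured their RNA by sequencing. In the coronal suture these were the suture mesenchyme (SM) and the osteogenic fronts (OFs) of the frontal and parietal bones. In the frontal suture they were the SM and the frontal OF, in the lambdoid suture the SM and the interparietal and parietal OFs, and in the sagittal suture the SM and the parietal OF. That gave 20 groups of 5 libraries, 100 libraries in all, from 40 embryos, and no mutant, transgene or treatment was present in any group. Added to these were 18 second libraries of the coronal groups, 16 complete-suture control libraries of E18.5, and 4 single-cell libraries of the coronal suture. The comparisons asked where along a suture, and between which stages, the level of endothelial RNA differed.

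A calvarial suture is a fibrous joint in which mesenchyme keeps 2 bone edges apart, and the OF is the growing edge of each bone. Vessels run through the mesenchyme and along the bone surfaces, and bone formation by osteoblasts is closely tied to vessel growth. Endothelial cells respond to VEGF through Kdr and to angiopoietins through Tek, hold to each other at junctions built with Pecam1, Cdh5 and Cldn5, and differ in their surface and secreted products between capillaries, veins and arteries. In a bulk library, fewer endothelial cells and less RNA per endothelial cell cannot be told apart.

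The genes have these places on the mouse genome (mm10, GENCODE annotation), with the length of their joined exons. Among the junction and surface genes, Pecam1, an adhesion molecule of endothelial contacts, lies on the minus strand at chr11:106654217-106750628 with 6228 exonic bases. Cdh5, VE-cadherin, lies on the plus strand at chr8:104101625-104144511 with 4203 exonic bases, and Emcn, the sialomucin endomucin of capillaries and veins, on the plus strand at chr3:137341067-137432185 with 5409. Cldn5, the tight junction claudin of endothelium, lies on the plus strand at chr16:18776847-18778262 with 1416. Of the receptors, Kdr (VEGF receptor) lies on the minus strand at chr5:75932827-75978458 with 9030 exonic bases, and Tek (angiopoietin receptor) on the plus strand at chr4:94739289-94874976 with 4712. Of the secreted products, Egfl7, an endothelial matrix factor, lies on the plus strand at chr2:26580014-26593120 with 3581, and Vwf, von Willebrand factor, the clotting protein stored in endothelial granules, on the plus strand at chr6:125546774-125686679 with 16064. Plvap, which forms the diaphragms of fenestrae and caveolae, lies on the minus strand at chr8:71497765-71511752 with 1987, and Gpihbp1, which carries lipoprotein lipase to the capillary lumen, on the plus strand at chr15:75596628-75599481 with 2554. Reads were counted without regard to strand, and the exons of Egfl7 overlap those of Agpat2, Gm20532, Mir126a and Mir126b, so its counts are uncertain; the other 9 had no overlapping gene.

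The promoter table at hand (RefSeq sequence, GRCm38.p6) held 7 starts of 5 of these genes, Egfl7, Emcn, Tek, Kdr and Cldn5, and Pecam1, Cdh5, Plvap, Vwf and Gpihbp1 were not in it. Emcn, Kdr and Tek are shown because, in the lambdoid SM described below, the first pair fell and Tek rose. Each line gives the 100 bases just before the start, 5′ to 3′ on the strand of the gene, and capitals mark GGAA or its complement TTCC, the core letters read by ETS factors, a family with many endothelial targets.
Emcn, chr3:137340978-137341077, plus strand: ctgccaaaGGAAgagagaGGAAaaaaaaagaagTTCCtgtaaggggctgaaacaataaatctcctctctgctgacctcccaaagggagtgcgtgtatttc
Kdr, chr5:75978456-75978555, minus strand: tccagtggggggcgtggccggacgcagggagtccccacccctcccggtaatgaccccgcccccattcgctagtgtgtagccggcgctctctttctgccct
Tek, chr4:94739189-94739288, plus strand: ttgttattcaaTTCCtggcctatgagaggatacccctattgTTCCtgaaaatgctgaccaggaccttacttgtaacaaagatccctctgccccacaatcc
The Emcn stretch held 3 such matches, that of Tek 2 and that of Kdr 0. Over 32851 promoters, 66.8% held at least 1 in these 100 bases, with a median of 1. In the whole window of 300 bases, from 250 before to 50 after the start, Emcn held 6, Kdr 5, Tek 2 and Cldn5 0, and the 3 Egfl7 starts held 5, 4 and 1, against a median of 3 and a share of 96% over all promoters. The letters were thus common in promoters of every kind, and a match is a description of sequence only.

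Before the comparisons, some libraries stood apart. The first coronal libraries were the deepest, with 20133332 to 34518477 counts against 7305627 to 18450955 in the other sutures, but varied most. The SD within groups, on the log2 CPM scale (CPM: counts of a gene relative to all counts of its library, scaled by TMM) and as the median over all genes tested, was 0.93 in the coronal suture against 0.47 in the frontal, 0.47 in the lambdoid and 0.33 in the sagittal suture. Mitochondrial genes took a median of 36.3% of counts (25.7% to 52.4%) in the first coronal E16.5 libraries and 14.5% in the second ones, and in the first coronal E18.5 libraries they took 20.7% to 27.5%. One library of the frontal OF at E18.5 had 52.3%. The fit that covers all sutures gives them 1 shared spread per gene. By these medians its p-values tend to be too small for the coronal and too large for the sagittal suture. For each of the 10 genes the coronal SD was the highest too. The sagittal SD was above the frontal for Pecam1 (0.381 against 0.361), Kdr (0.393 against 0.387), Tek (0.578 against 0.385) and Gpihbp1 (0.654 against 0.582). It was below the frontal for the other members, so the sagittal statement does not hold for every member. Where a fit of 1 suture alone changed the calls among the 10, this is given beside the result. As a check of the region labels, 8 of 8 osteoblast genes were called lower in SM than in OF over all sutures, with a median log2 difference of -3.66.

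The summed level of the 10 genes differed among groups by several fold. In the coronal suture at E16.5 it was 319 ± 135 CPM in SM, 228 ± 74.6 in frontal OF and 240 ± 125 in parietal OF (SD, n = 5 in every group), and at E18.5 it was 284 ± 26.3 in SM and 328 ± 108 in frontal OF but 80.9 ± 14.8 in parietal OF. The frontal suture had the highest level, 476 ± 169 CPM in SM and 356 ± 50.7 in OF of E16.5 embryos; in those of E18.5 it was 291 ± 68.5 and 241 ± 46.4. In the lambdoid suture the SM at E16.5 had 99.1 ± 21.5 CPM beside 218 ± 63.6 in interparietal and 186 ± 33.9 in parietal OF, whereas at E18.5 the 3 regions had 188 ± 42.4, 151 ± 28 and 204 ± 16.4. The sagittal suture started low at E16.5, with 101 ± 26.9 CPM in SM and 67.5 ± 22.2 in parietal OF, and stood at 184 ± 36.3 and 242 ± 41.0 at E18.5. Captured regions of different sutures or stages came from different embryos and, apart from the controls, suture and library set cannot be told apart, so levels between sutures are given as a description.

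**Figure D1:**
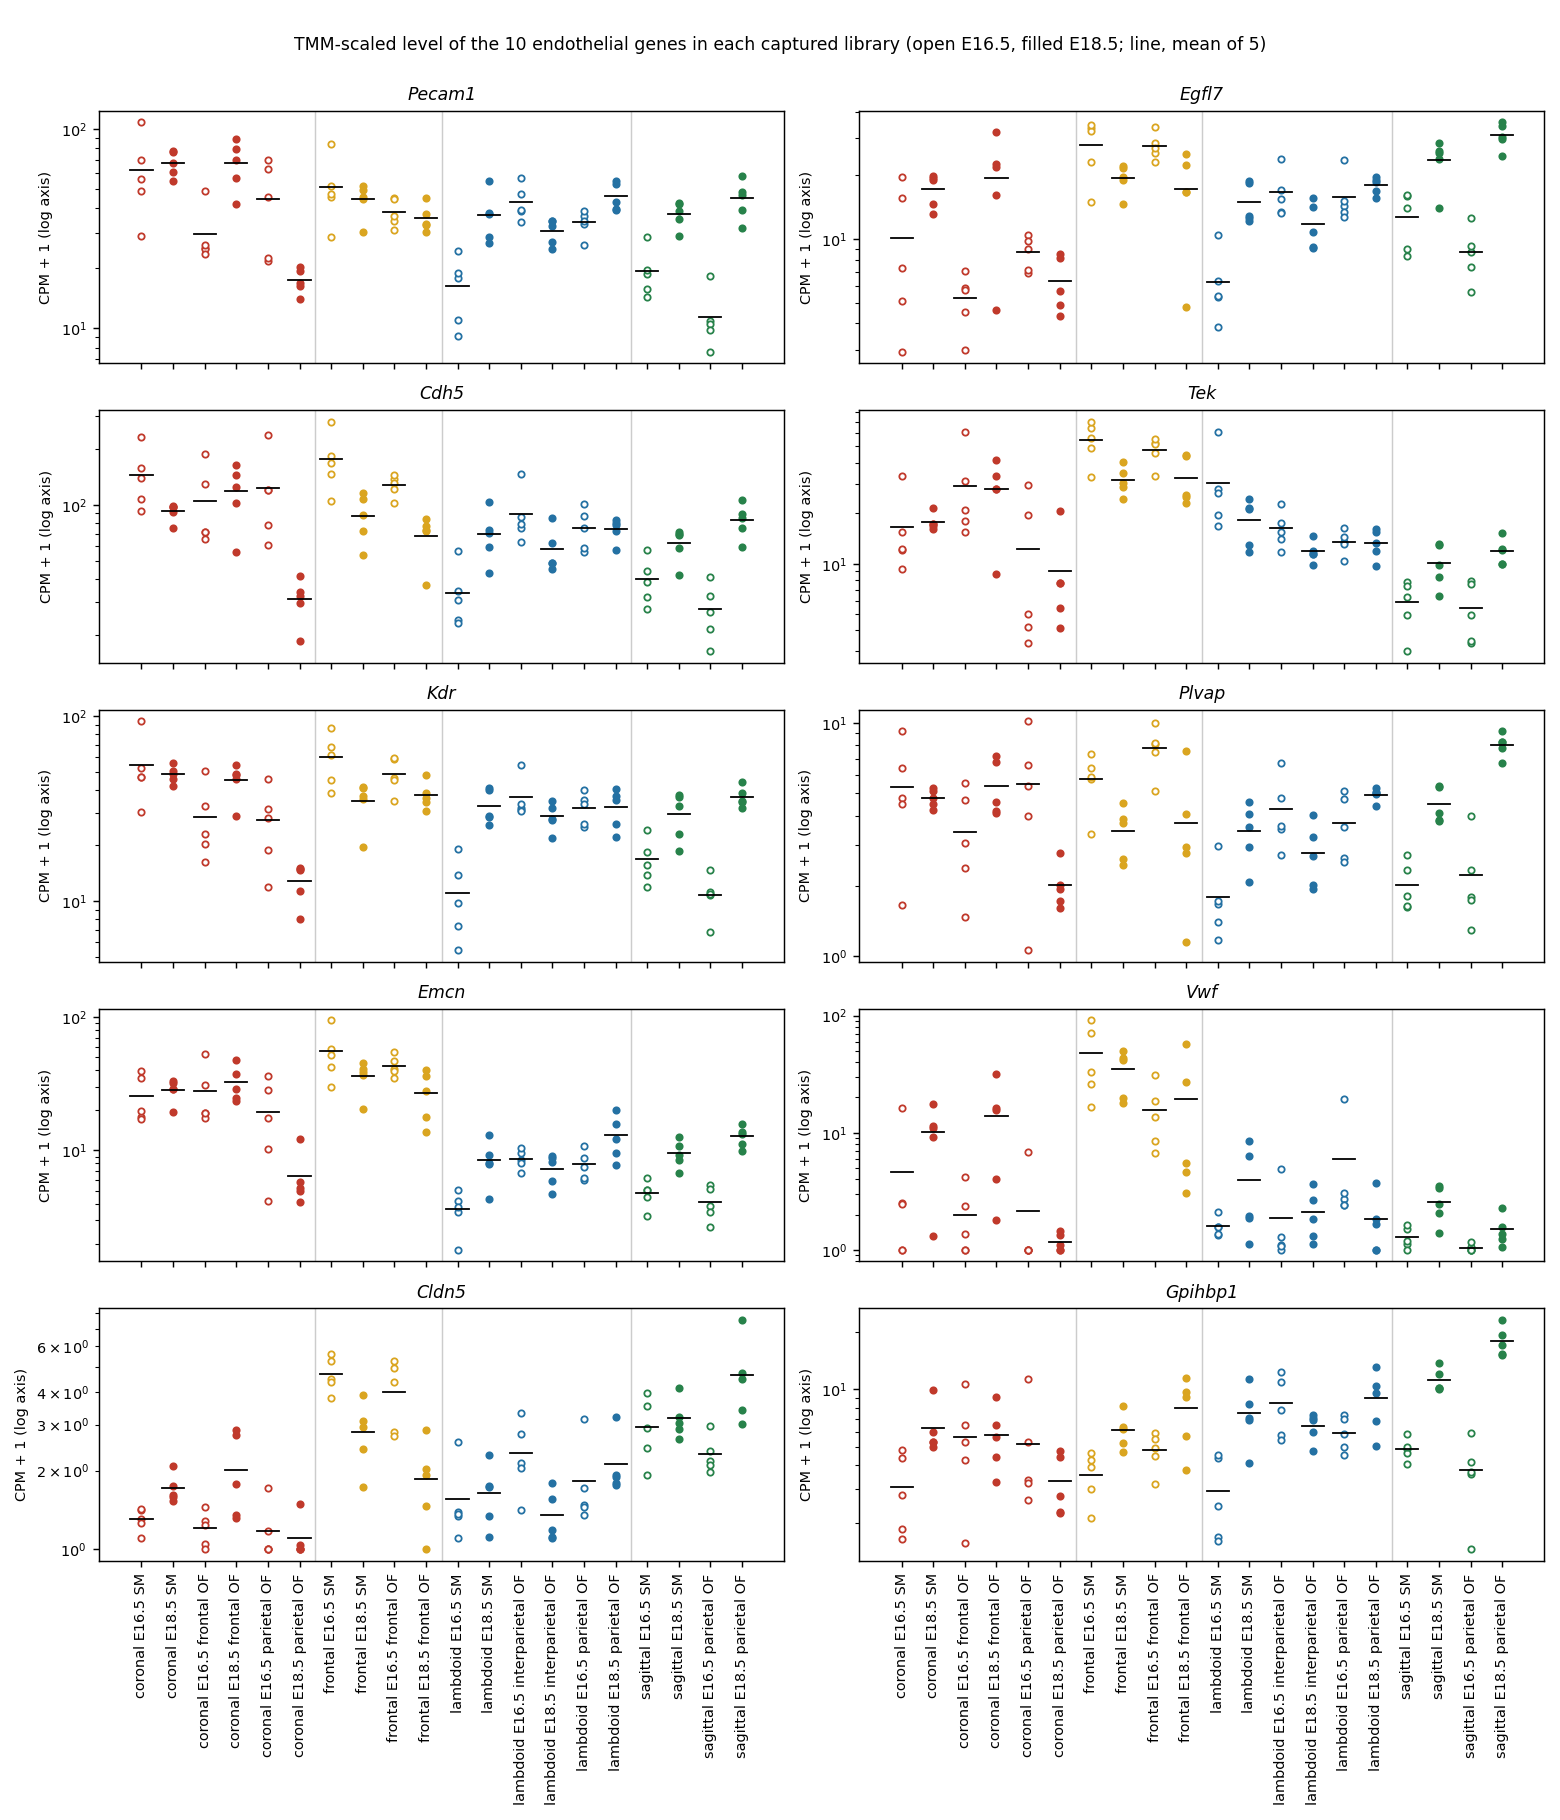
Level of each of the 10 genes in all 100 first libraries, as CPM on a log scale after adding 1 (vertical axis), by suture, stage and region (horizontal axis); points are libraries and bars are group means. The parietal OF of the coronal suture at E18.5, the lambdoid SM at E16.5 and the sagittal parietal OF at E16.5 sit low for most genes.

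Each gene had its own order of groups. Pecam1 was highest in coronal frontal OF at E18.5 (66.5 ± 18.6 CPM) and lowest in sagittal parietal OF at E16.5 (10.4 ± 4.04), a ratio of 6.37, and Cdh5 spanned 175 ± 64.8 CPM in frontal SM at E16.5 to 26.6 ± 9.54 in the same lowest group. Frontal SM at E16.5 was the highest group also for Kdr (59.1 ± 19 CPM), Emcn (54.1 ± 24.1), Cldn5 (3.70 ± 0.727), Tek (53.5 ± 14.6) and Vwf (46.5 ± 31.8). Sagittal parietal OF at E18.5 was the highest for Egfl7 (29.9 ± 4.21 CPM), Plvap (7.06 ± 0.923) and Gpihbp1 (17 ± 3.31), genes that also moved with the library set in the controls described below. Lambdoid SM at E16.5 was the lowest for Emcn (2.66 ± 1.2 CPM), Plvap (0.786 ± 0.690) and Gpihbp1 (1.93 ± 1.43). Adjacent groups in these orders overlapped in all 19 neighbour pairs for 9 genes and in 18 of 19 for Gpihbp1, where sagittal parietal OF at E18.5 stood above the SM of the same suture and stage. Per length, Cdh5 was the most abundant, with a mean of 19.9 RPKM over the 20 groups, followed by Pecam1 with 6.09, and Vwf was the least with 0.482. Vwf was at 0 in 17 of the 100 libraries and Cldn5 in 8, and the other 8 genes were detected in all.

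The first comparison set SM against the OFs of the same embryos. Over all sutures and both ages, Vwf was higher in SM by 1.52 on the log2 scale (SE 0.48, edgeR adjusted p = 0.00556) and Pecam1 by 0.21 (SE 0.09, adjusted p = 0.0361), and Gpihbp1 was lower by -0.37 (SE 0.14, adjusted p = 0.0214). The other 7 did not pass the test, with differences from -0.31 for Plvap to 0.35 for Cldn5. A count of 3 of 10 is below the share of all genes, since 54.9% of genes tested were called in this comparison. The median of the 10 was 0.10 against 0.05 over all genes. Leaving out 1 replicate number at a time left 2 calls, and 0 without replicate 5. The average hides opposite differences in single sutures, which follow.

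In the coronal suture at E18.5 the parietal OF held less endothelial RNA than both other regions. Pecam1 was at 59.5, 53.9, 75.2, 76.1 and 66.8 CPM in SM and at 68.8, 41.2, 55.6, 88.4 and 78.6 in frontal OF (replicates 1 to 5), but at 13.1, 15.4, 15.9, 18.4 and 19.2 in parietal OF. Cdh5 was at 97.0, 74.2, 98.2, 90.5 and 96.8 CPM in SM, at 143, 54.9, 102, 164 and 124 in frontal OF and at 40.3, 17.5, 31.5, 28.7 and 33.0 in parietal OF. For both genes every parietal OF library lay below every library of the other regions, whereas SM and frontal OF overlapped. Emcn had the same layout, with 32.3, 30.8, 28, 18.4 and 27.8 CPM in SM, 46.8, 23.7, 22.6, 36.5 and 27.8 in frontal OF, and 3.12, 3.97, 4.23, 4.78 and 11.3 in parietal OF. Of the receptors, Kdr was at 40.8, 49.8, 54.5, 44.8 and 47.9 CPM in SM, at 53.3, 27.9, 44.6, 47.6 and 47.0 in frontal OF, and at 10.3, 6.96, 13.7, 14.1 and 13.9 in parietal OF. The second receptor, Tek, had a parietal OF library within the range of SM: it was at 6.66, 3.13, 6.70, 19.6 and 4.42 CPM in parietal OF and at 20.4, 16.1, 16.2, 15.1 and 15.7 in SM. Among the less abundant products, Plvap was at 0.945, 0.617, 0.729, 1.78 and 1.03 CPM in parietal OF and at 4.26, 4.10, 3.47, 3.22 and 3.78 in SM. Vwf was at 0, 0.441, 0.340, 0.102 and 0 CPM in parietal OF, and at 9.98, 0.312, 16.7, 10.3 and 8.14 in SM. Vwf in SM thus rested on 4 of 5 libraries, with replicate 2 within the range of the parietal OF.

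All 10 genes were called higher in SM than in this parietal OF, where 17.9% of all genes tested were called and 8% were called higher. Pecam1 differed by 2.01 on the log2 scale (SE 0.26, edgeR adjusted p = 1.91e-08), Cdh5 by 1.65 (SE 0.24, adjusted p = 1.89e-07), Emcn by 2.41 (SE 0.38, adjusted p = 1.99e-06) and Kdr by 2.06 (SE 0.27, adjusted p = 2.1e-08). Cldn5 differed by 3.28 (adjusted p = 0.00576), Egfl7 by 1.57 (adjusted p = 0.000443), Tek by 1.32 (adjusted p = 0.0135), Plvap by 1.91 (adjusted p = 0.021), Vwf by 4.99 (SE 1.46, adjusted p = 0.0108) and Gpihbp1 by 1.31 (adjusted p = 0.022). The fitted differences of Cldn5 and Vwf rest on libraries at or near 0 and depend on the prior count. The median of the 10 was 1.96 against 0.01 over all genes, and for 8 of the 10 the ranges of the 5 and 5 libraries did not overlap, as was so, in the same direction, for 4.7% of all genes. With the coronal suture fitted alone, 5 remained called (Pecam1, Cdh5, Kdr, Emcn and Egfl7), against 6.61% of genes, and leaving out 1 replicate number at a time gave 8 or 9 calls, but 6 without replicate 2.

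Against the frontal OF of the same embryos, none of the 10 was called, against 3.53% of all genes, and 0 of 10 had an unadjusted p under 0.05, against 13.4%. Pecam1 differed by 0.02 (95% interval -0.47 to 0.52) and Kdr by 0.14 (-0.36 to 0.65), while the interval for Vwf ran from -2.60 to 1.65 and leaves large differences undetected. Between the OFs themselves, the frontal was higher than the parietal for 9 of the 10 (all but Gpihbp1, adjusted p = 0.136), with 6.16% of genes called. Emcn differed by 2.59 (SE 0.39, edgeR adjusted p = 3.71e-06), Pecam1 by 1.99 (SE 0.26, adjusted p = 2.86e-07), Cdh5 by 1.93 (SE 0.24, adjusted p = 5.44e-08) and Kdr by 1.91 (SE 0.27, adjusted p = 9.73e-07). Fitted alone, 4 were called in the coronal suture, against 1.1% of genes, and leave-one-out fits gave 7 or 8, but 5 without replicate 1. Other endothelial genes, a list of 20, had the same direction as the 10: 16 were called higher in SM than in parietal OF and none lower, led by the transcription factor Sox17 (3.37), the surface protein Ecscr (2.94) and the adhesion molecule Icam2 (2.72).

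At E16.5 the coronal regions were less far apart. Pecam1 was at 54.9, 107, 68.5, 28.1 and 48.0 CPM in SM, at 24.2, 24.1, 48.0, 25.1 and 22.7 in frontal OF and at 61.6, 20.7, 21.5, 69.1 and 44.8 in parietal OF. Kdr was at 46.1, 93.1, 51.3, 29.4 and 46.1 CPM in SM, at 31.9, 22.2, 49.6, 19.4 and 15.2 in frontal OF and at 45.0, 11.0, 18, 30.4 and 27.1 in parietal OF. The ranges overlapped for both genes, yet in the mean of the OFs Kdr was lower in 5 of 5 embryos and Pecam1 in 4 of 5. Against that mean, Kdr was higher in SM by 1.00 (SE 0.23, edgeR adjusted p = 0.000345) and Pecam1 by 0.77 (SE 0.22, adjusted p = 0.00501), the only members called, where 35.1% of genes were. Red cell genes took 0.00888% to 0.0439% of counts in SM, 0.00583% to 0.0255% in frontal OF and 0.00795% to 0.0189% in parietal OF. Their part was not tested. Against single OFs, Pecam1 (1.09), Kdr (1.00) and Egfl7 (0.91, adjusted p = 0.0432) were called higher than in frontal OF, with 27.2% of genes called, and Kdr (1.00) than in parietal OF, with 33.3%, but none of the 10 in either with the suture alone. Fitted alone, only Kdr was called, against 15.7% of genes, and the shared fit gave 1 call without replicate 2 and 4 without replicate 3. The frontal OF exceeded the parietal OF at this age in Tek, by 1.42 (SE 0.42, adjusted p = 0.0237), with 9.09% of genes called, but in none of the 10 when the suture was fitted alone. Of other cell markers, 2 of 10 pericyte genes and 1 of 2 epidermis genes tested, Krt10 (2.01, adjusted p = 0.0428), were called higher there and 1 of 5 smooth muscle genes lower, and their part was not tested. At E18.5 the same mean over OFs gave 4 calls, Pecam1 at 1.02, Cdh5 at 0.68, Kdr at 1.10 and Emcn at 1.11, with 12.1% of genes called and 2 of the 10 (Pecam1 and Kdr) called by the suture alone, against 4.22%. Between the ages the difference of SM and OF changed for Gpihbp1, by 1.68 (SE 0.53, adjusted p = 0.0426), with 6% of genes called, and for none of the 10 with the suture alone.

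**Figure D2:**
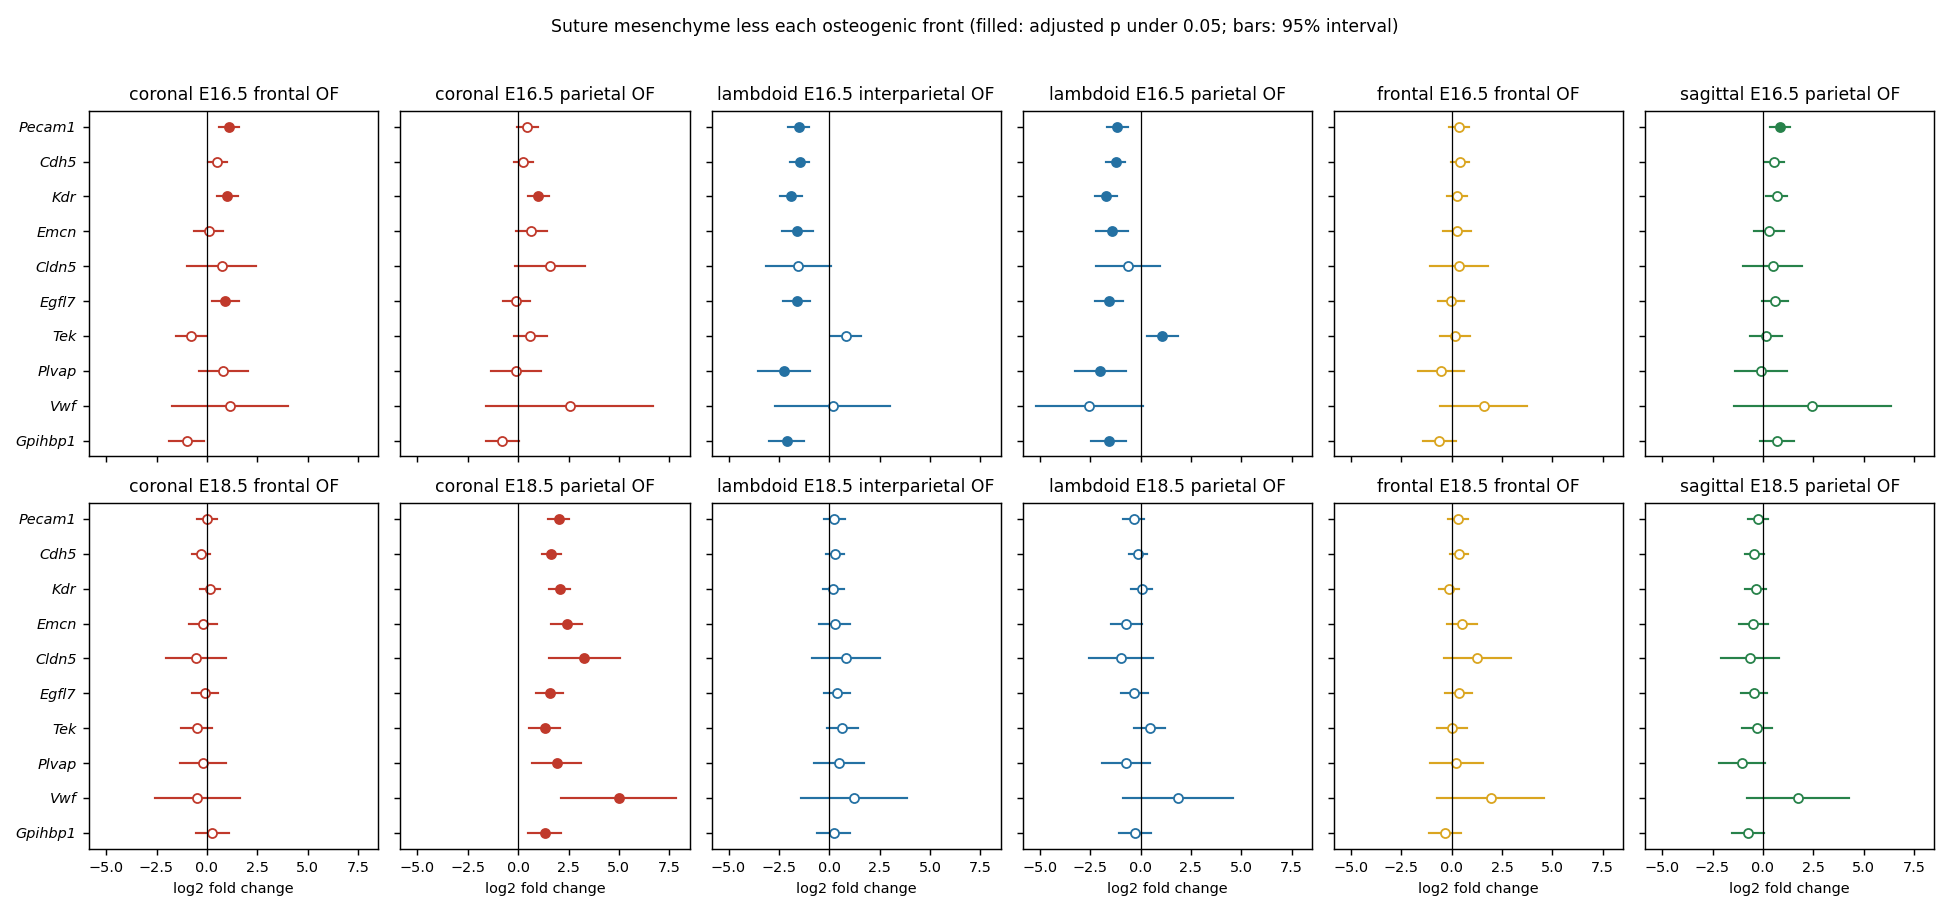
Log2 difference of SM less each OF (horizontal axis, with the 95% interval as a bar) for the 10 genes, by suture, stage and OF; filled points are called at the adjusted p threshold of 0.05. Against the coronal parietal OF at E18.5 all 10 points lie right of 0, and at lambdoid E16.5 most lie left of it with Tek to the right.

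SM less OF in the coronal suture was also tested against the mean of the other sutures, and was higher in the coronal suture for most of the 10. That test called 6 of the 10, Pecam1 by 0.92 (SE 0.19, edgeR adjusted p = 0.000161), Cdh5 by 0.60 (SE 0.17, adjusted p = 0.00704), Kdr by 1.26 (SE 0.19, adjusted p = 7.6e-07), Emcn by 0.92 (SE 0.27, adjusted p = 0.00892), Egfl7 by 0.76 (SE 0.25, adjusted p = 0.0205) and Plvap by 1.22 (SE 0.44, adjusted p = 0.0394). Cldn5, Tek, Vwf and Gpihbp1 did not pass it, with Tek at -0.11. In all, 20% of genes were called, and 4 or 5 of the 10 were called without replicate 1, 4 or 5, 3 without replicate 3 and 2 without replicate 2. Of the other 20 endothelial genes, 11 were called higher and none lower. The median SM less OF of the 10 was 0.40 at coronal E16.5 and 0.94 at coronal E18.5. At the same ages it was 0.59 and -0.43 in the sagittal suture and 0.27 and 0.32 in the frontal. In the lambdoid suture, described next, it was -1.43 and -0.0014, and these values enter the mean of the others. At coronal E18.5 none of the 10 was called against the frontal OF. The test spans sutures, so no fit of 1 suture alone applies, and coronal p-values tend to be too small.

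In the lambdoid suture at E16.5 the direction was the opposite: SM held less RNA of most of the 10 than either OF, and more of Tek. Pecam1 was at 9.98, 16.8, 17.9, 23.5 and 8.10 CPM in SM, at 37.8, 38.2, 33.3, 55.8 and 46.1 in interparietal OF and at 25.3, 32.5, 35.7, 37.8 and 33.5 in parietal OF. Kdr was at 6.36, 12.8, 8.71, 18.1 and 4.40 CPM in SM, at 30.0, 30.9, 29.9, 53.8 and 32.5 in interparietal OF and at 24.2, 38.7, 34.2, 32.6 and 25.1 in parietal OF. No SM library reached the lowest OF library for either gene. Tek was at 27.0, 18.6, 25.4, 15.7 and 59.6 CPM in SM, above all parietal OF libraries (15.3, 9.44, 12.4, 12.1 and 13.5) and mostly above the interparietal ones (10.7, 14.5, 13, 16.4 and 21.8). The secreted Egfl7 was at 2.84, 5.32, 4.35, 9.40 and 4.40 CPM in SM and at 11.7 or more in every OF library. Gpihbp1, the lipase anchor, was at 0.688, 3.38, 1.45, 3.54 and 0.600 CPM in SM, at 4.76, 9.86, 4.46, 11.4 and 6.78 in interparietal OF and at 4.01, 6.33, 4.82, 5.98 and 3.51 in parietal OF. It overlapped with the parietal OF by 1 library only and not with the interparietal OF.

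Against the mean of both OFs, 7 of the 10 were called lower in SM and Tek higher, where 13.4% of all genes were called lower and 10.3% higher. Pecam1 differed by -1.34 (SE 0.24, edgeR adjusted p = 1.29e-05), Cdh5 by -1.35 (SE 0.22, adjusted p = 1.19e-06), Emcn by -1.5 (SE 0.36, adjusted p = 0.0012), Kdr by -1.82 (SE 0.25, adjusted p = 4.97e-08), Egfl7 by -1.6 (SE 0.32, adjusted p = 8.09e-05), Plvap by -2.13 (SE 0.60, adjusted p = 0.00564) and Gpihbp1 by -1.85 (SE 0.40, adjusted p = 0.000245). All 7 were lower in 5 of 5 embryos. Tek was higher by 0.96 (SE 0.32, adjusted p = 0.0233), also in 5 of 5 embryos. Cldn5 was at -1.09 (adjusted p = 0.313) and Vwf at -1.19 (adjusted p = 0.571). The median of the 10 was -1.43 against 0.01 over all genes, and 8 were called with the suture fitted alone, against 35.9% of genes. The same 7 fell against each OF alone, from -1.47 (Cdh5) to -2.27 (Plvap) against the interparietal OF, with 12% of genes called, and from -1.16 (Pecam1) to -1.99 (Plvap) against the parietal OF, with 24.1%. Tek passed the test against the parietal OF (1.09, adjusted p = 0.0325) and not against the interparietal OF (0.83, adjusted p = 0.179), but did so against the interparietal OF with the suture alone (0.89, adjusted p = 0.00276), which called 8 of the 10 there, against 22.4% of genes. Of the other 20 endothelial genes 10 were called lower and none higher, led by the apelin receptor Aplnr (-2.78), Sox17 (-2.01) and the junction molecule Esam (-1.55). Markers of other cells did not all move the same way: of 10 pericyte genes 4 were called higher and 2 lower, of 5 smooth muscle genes 3 were called higher and of 6 macrophage genes 3, while of 6 red cell genes none was called. Both skeletal muscle genes that could be tested were called higher in SM, Acta1 by 2.43 (adjusted p = 0.0128) and Myh3 by 3.35 (adjusted p = 0.0226). Summed over 4 muscle genes, levels ran from 6.89 to 167 CPM in SM, from 1.57 to 76.0 in interparietal OF and from 0.860 to 5.89 in parietal OF. Summed red cell genes ran from 924 to 3108 CPM in SM and from 898 to 18747 over the parietal OF libraries, and the part of all these cells in the result was not tested.

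The other comparisons of SM and OF gave few calls. In the lambdoid suture at E18.5 none of the 10 was called, with 28.6% of genes called, differences from -0.22 (Emcn) to 1.54 (Vwf) and 0 of 10 at an unadjusted p under 0.05, where 37.3% of genes had one. With the suture alone Tek was called higher in SM, by 0.59 against the mean of the OFs (adjusted p = 0.0118), with 41.2% of genes called. It was also higher by 0.68 against the interparietal OF (adjusted p = 0.0178), with 33.2%. Pecam1 stood at -0.04 there (95% interval -0.49 to 0.40). The change of the SM difference between ages passed the test for Kdr (1.95, SE 0.33, edgeR adjusted p = 0.000791) and Cdh5 (1.44, SE 0.29, adjusted p = 0.00545), with 0.248% of genes called, and for 5 of the 10 with the suture fitted alone (Pecam1, Cdh5, Kdr, Egfl7 and Gpihbp1), against 1.55%. With limma-voom it passed for 0 of the 10 (and for 9 of all genes), and without 1 replicate for 1 to 3. Between the interparietal and parietal OFs none of the 10 was called at either age, with 0.981% of genes called at E16.5 and 0.0152% at E18.5, although 4 of the 10 had an unadjusted p under 0.05 at E18.5, where 3.11% of all genes had one. In the frontal suture none of the 10 was called at E16.5 (8.81% of genes) or at E18.5 (11.3%), and 0 of 10 had an unadjusted p under 0.05 at either age, where 18% and 21.8% of all genes had one. The widest interval there was again that of Vwf, with a difference of 1.6 (-0.56 to 3.76) at E16.5, where it was at 15.7, 89.8, 31.8, 25.3 and 70.1 CPM in SM and at 12.5, 30.0, 7.43, 17.6 and 5.68 in OF.

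In the sagittal suture the difference of SM and parietal OF leaned to opposite sides at the 2 ages. At E16.5 Pecam1 was at 27.8, 17.7, 13.3, 14.8 and 18.52 CPM in SM and at 17.3, 9.93, 6.63, 9.56 and 8.79 in OF, higher in SM in 5 of 5 embryos though the ranges overlapped. It was the only member called, by 0.84 (SE 0.26, edgeR adjusted p = 0.0156), with 18.4% of genes called, and the call was lost without replicate 3 or replicate 5. Fitted alone, the sagittal suture gave 5 calls, all higher in SM (Pecam1, Cdh5, Kdr, Egfl7 and Vwf), against 42.8% of genes. At E18.5 none was called in the shared fit, with 26.1% of genes called and 0 of 10 at an unadjusted p under 0.05 (34.6% of genes), but 9 of the 10 differences were below 0. Gpihbp1 was at 9.09, 12.7, 10.9, 9.17 and 9.21 CPM in SM and at 14.2, 16.1, 22.1, 18.3 and 14.2 in OF, and Plvap at 4.28, 2.82, 2.79, 4.36 and 3.11 in SM and at 7.28, 8.25, 6.82, 5.70 and 7.25 in OF. For both genes all OF libraries lay above all SM libraries, as in 16.6% of all genes. Fitted alone, 5 were lower in SM (Cdh5, Emcn, Egfl7, Plvap and Gpihbp1) and Vwf was higher, against 50.3% of genes. The change of the difference between ages was below 0 for all 10 and called for none in the shared fit (0.116% of genes), though 5 of 10 had an unadjusted p under 0.05 where 3.99% of genes had one, and for 5 with the suture alone (Pecam1 at -1.08, Cdh5 at -0.99, Kdr at -1.03, Egfl7 at -1.02 and Gpihbp1 at -1.35), against 4.84%.

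The second set of comparisons set E18.5 against E16.5 within each region. These use different embryos, and stage and capture cannot be told apart. By their labels, several embryos of a group may also be littermates, and the tests treat them as independent. The sagittal parietal OF had the broadest rise. Pecam1 was at 17.3, 9.93, 6.63, 9.56 and 8.79 CPM at E16.5 and at 45.5, 31.0, 57.2, 38.3 and 47.0 at E18.5. Egfl7 was at 11.5, 6.38, 4.63, 7.65 and 8.27 CPM at E16.5 and at 23.8, 28.6, 34.6, 29.4 and 33.0 at E18.5. Gpihbp1 was at 4.89, 2.60, 0.457, 2.69 and 3.18 CPM at E16.5, and its E18.5 values, given above, were all higher. For 9 of the 10 every E18.5 library lay above every E16.5 library, as in 4.62% of all genes. In the test 7 were called higher, where 1.15% of all genes were: Pecam1 by 2.07 (SE 0.27, edgeR adjusted p = 4.81e-08), Cdh5 by 1.63 (SE 0.29, adjusted p = 0.000115), Emcn by 1.91 (SE 0.37, adjusted p = 0.000536), Kdr by 1.86 (SE 0.28, adjusted p = 3.62e-06), Egfl7 by 1.96 (SE 0.35, adjusted p = 0.000143), Plvap by 2.52 (SE 0.56, adjusted p = 0.00448) and Gpihbp1 by 2.62 (SE 0.48, adjusted p = 0.00015). Tek (1.29, adjusted p = 0.104), Cldn5 (1.46, adjusted p = 0.537) and Vwf (3.27, adjusted p = 0.577) did not pass, and all 10 passed with the suture alone, against 11.9% of genes. Of the other endothelial genes 10 of 20 were called higher, led by Aplnr (3.76), Clec14a (2.81) and Flt1, a VEGF receptor (2.64). Of 6 red cell genes 4 were called higher and of 10 pericyte genes 2, Rgs5 at 4.78 and Mcam at 1.33. Summed red cell genes ran from 168 to 602 CPM at E16.5 and from 178 to 5917 at E18.5, and their part in the result was not tested.

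In the SM of the same suture all 10 differences were above 0 and 8 had an unadjusted p under 0.05, where 6.7% of all genes had one, but Pecam1 alone was called (0.99, SE 0.26, edgeR adjusted p = 0.032), with 1.12% of genes called, and it was lost in each of the fits without 1 replicate. Fitted alone, 7 of the 10 were called, against 7.71% of genes. In the lambdoid SM 6 of the 10 rose: Pecam1 by 1.24 (SE 0.27, edgeR adjusted p = 0.00158), Cdh5 by 1.08 (SE 0.29, adjusted p = 0.0181), Emcn by 1.5 (SE 0.39, adjusted p = 0.0136), Kdr by 1.66 (SE 0.29, adjusted p = 7.33e-05), Egfl7 by 1.41 (SE 0.36, adjusted p = 0.0112) and Gpihbp1 by 1.76 (SE 0.48, adjusted p = 0.0194). With the suture alone Plvap was called as well, 7 in all, against 8.85% of genes, whereas limma-voom called 1 of the 10 (and 223 of all genes). In the shared fit 2.96% of all genes tested were called in this SM and 0.784% were called higher, and the 2 lambdoid OFs had no call among the 10, with 0.288% of genes called in the interparietal and 0.986% in the parietal OF. Kdr in lambdoid SM reached 27.6, 27.9, 40.0, 24.7 and 39.1 CPM at E18.5, each above all E16.5 values given before, but the count of calls fell to 3 without replicate 1 and to 1, Kdr, without replicate 5. Tek, at 20.3, 23.1, 20.5, 10.7 and 11.9 CPM at E18.5, had a difference of -0.76 (adjusted p = 0.449) and overlapped between stages. The muscle genes Myh3 (-4.53, edgeR adjusted p = 0.0566) and Acta1 (-2.20, adjusted p = 0.272) stood lower at E18.5 in this SM without a call. Their part in the result was not tested.

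The coronal parietal OF went the other way. Cdh5 was at 238, 77.3, 60.1, 119 and 119 CPM at E16.5, each above the E18.5 values of 17.5 to 40.3, while Pecam1 at 20.7 to 69.1 was above 13.1 to 19.2. The mitochondrial share of counts also differed without overlap in this region, at 34.2% to 42.7% at E16.5 and 21.5% to 27.5% at E18.5, and its part in the result was not tested. All 10 differences were below 0, and 5 were called lower, where 9.03% of all genes were: Pecam1 by -1.41 (SE 0.26, edgeR adjusted p = 4.2e-05), Cdh5 by -2.02 (SE 0.29, adjusted p = 2.16e-07), Emcn by -1.74 (SE 0.36, adjusted p = 0.000237), Kdr by -1.16 (SE 0.28, adjusted p = 0.0015) and Plvap by -2.12 (SE 0.56, adjusted p = 0.00364). With the suture alone, 4 of these were called (all but Plvap), against 2.75% of genes. Of the other endothelial genes 6 were called lower, led by Aplnr (-3.46), Mmrn2 (-1.69) and Sox7 (-1.57), and Ramp2 was called higher (1.29). In the frontal OF of the same suture 4 were called higher, Pecam1 by 1.21, Egfl7 by 2.12, Cldn5 by 2.25 and Vwf by 3.67, with 24.4% of genes called, of which the suture alone called Pecam1 and Egfl7, against 4.71%. The second coronal libraries, described below, called none, against 11.4%. The mitochondrial share of the first libraries did not overlap in this frontal OF either, at 30.6% to 52.4% at E16.5 and 21.5% to 25.3% at E18.5. Its part was not tested. In the coronal SM only Gpihbp1 was called, by 1.34 (SE 0.46, adjusted p = 0.0224), with 27.1% of genes called. It stood at 0.858, 3.81, 1.79, 0.640 and 3.39 CPM at E16.5 and at 3.98, 4.28, 8.93, 5.01 and 4.31 at E18.5, was not called with the suture alone, and stood at -0.31 (adjusted p = 0.754) with only the second coronal libraries. In the frontal suture Cdh5 was lower at E18.5 in SM (-1.01, SE 0.28, adjusted p = 0.0309; 2.33% of genes called) and in OF (-0.91, SE 0.28, adjusted p = 0.0474; 4.34% of genes called). The call was lost in SM without replicate 2, 3 or 5 and in OF without any replicate but 3. With that suture alone Cdh5, Kdr and Tek were called lower in SM, against 5.23% of genes. In OF they were Cdh5 and Cldn5, against 10.2%. Other cell markers moved with these: summed red cell genes ran from 912 to 1833 CPM at E16.5 and from 156 to 1129 at E18.5 in SM, and from 873 to 1673 and from 72.1 to 857 in OF, where 1 of 6 was called lower. In OF the muscle gene Myh3 was also called lower (-6.26, adjusted p = 0.0194). The part of these cells was not tested.

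**Figure D3:**
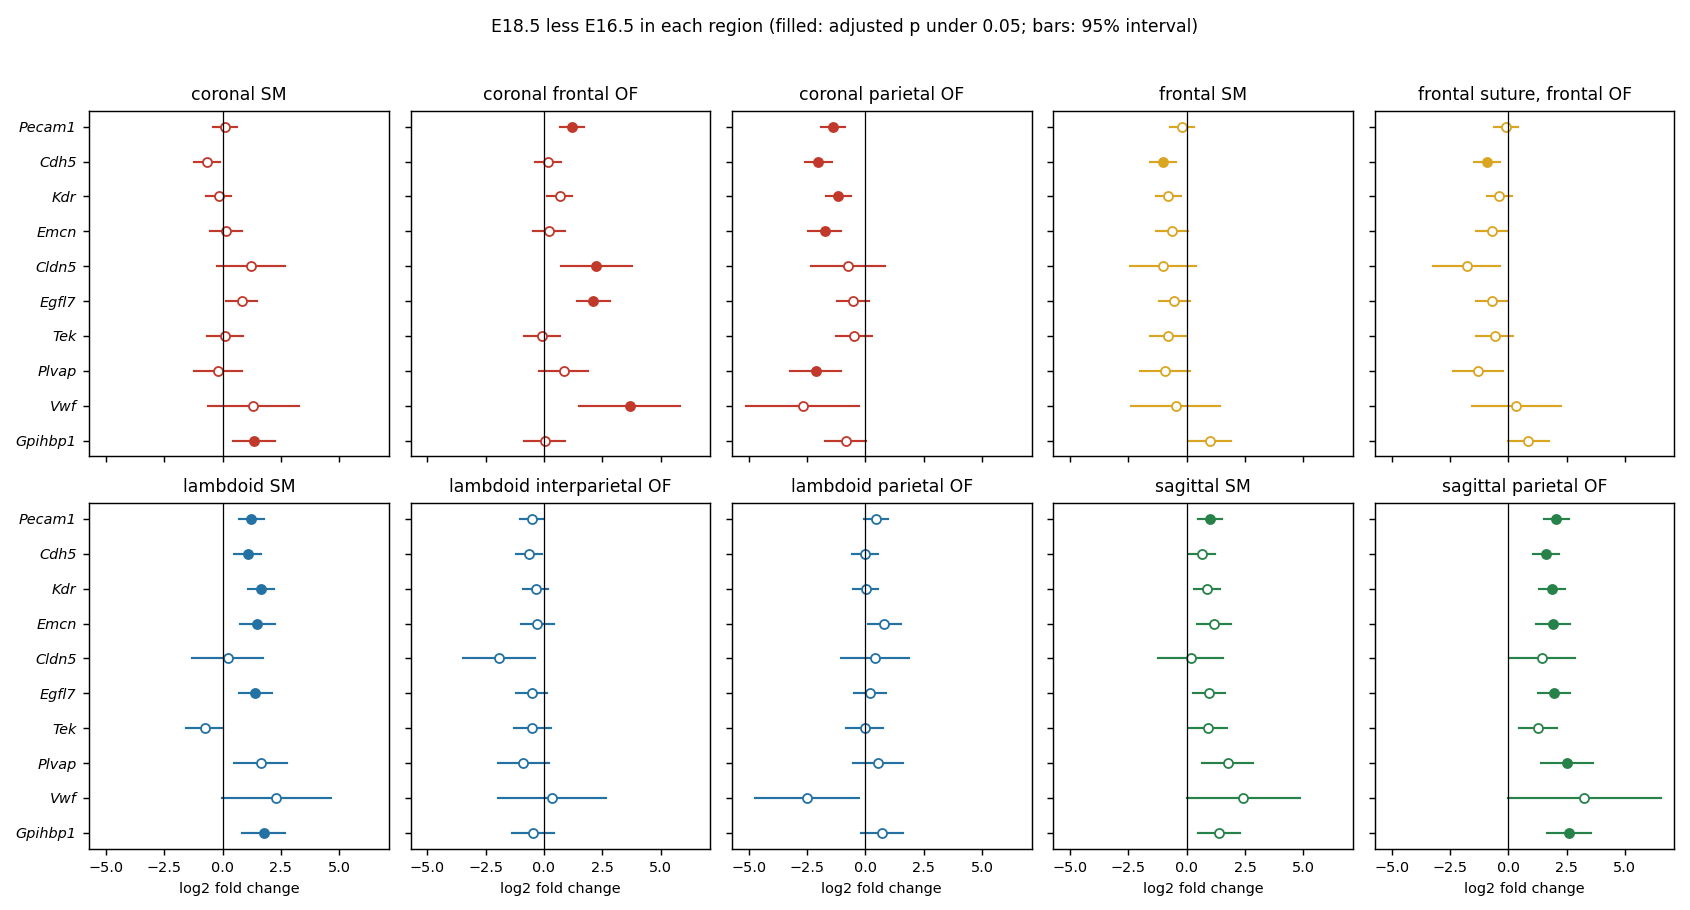
Log2 difference of E18.5 less E16.5 (horizontal axis, with the 95% interval as a bar) for the 10 genes in each region; filled points are called at the adjusted p threshold of 0.05. The sagittal parietal OF and the lambdoid SM lie right of 0 for most genes and the coronal parietal OF lies left of it for all 10.

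The second coronal libraries, 3 per group from the same embryos as some of the first, gave the same layout at E18.5 for most members, but not for Tek. In parietal OF Pecam1 ran from 9.32 to 16.7 CPM, Cdh5 from 19.7 to 33.8, Kdr from 12.1 to 23.2 and Emcn from 3.00 to 6.47, and in SM they ran from 45.1 to 63.6, 78.1 to 95.3, 31.0 to 52.4 and 11.8 to 35.1. None of these 4 genes overlapped between the regions. The share of all genes without overlap was not counted for the second libraries, so this separation has no background to be set against. A fit with only these 18 libraries for the coronal suture called 8 of 10 higher in SM than in parietal OF, against 20.5% of genes. The exceptions were Cldn5 at 1.12 (edgeR adjusted p = 0.363) and Tek at 0.20 (adjusted p = 0.718). Tek ran from 6.17 to 9.33 CPM in the second E18.5 SM libraries, all below the 20.5 to 44.1 of frontal OF and overlapping with the 6.08 to 7.26 of parietal OF. It was called lower in SM than in frontal OF (-1.95, adjusted p = 0.00064), the only one of the 10 called there, against 4.08% of genes. Between stages in SM, Tek (-1.999, adjusted p = 0.000383) and Cldn5 (-2.44, adjusted p = 0.0239) were called lower at E18.5, against 7.02% of genes, whereas neither was called in the first libraries. At E18.5 the second frontal OF libraries shared only 2 embryos with those of the other regions. The sets differed in level for some of the genes. This was seen on CPM for which all 134 bulk libraries were scaled together, so that values of the first libraries differ slightly from those above. In E16.5 SM, Egfl7 ran from 31.3 to 66.2 CPM in the second libraries against 1.93 to 18.54 in the first, and Plvap from 11.8 to 19 against 0.649 to 8.09. Gpihbp1 ran from 7.47 to 14.9 against 0.631 to 3.79 and Cldn5 from 2.41 to 11.9 against 0.105 to 0.423. Pecam1, Cdh5, Kdr, Emcn, Tek and Vwf overlapped between the sets in that group.

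The complete-suture controls allow sutures to be compared within a set of libraries, since each of 4 control sets (named C, IF, L and S in the labels) held all 4 sutures of E18.5. The labels do not say whether the sets share RNA, so each value is a single library and no test was run. Vwf differed most: it was at 95.2, 114, 125 and 95.9 CPM in the frontal suture (sets C, IF, L and S) and at 4.35, 6.69, 14.7 and 7.91 in the coronal suture, a ratio of 8.52 to 21.9 within a set. The lambdoid suture had 27.7, 47.9, 44.9 and 34.6 CPM and the sagittal 16.8, 28.6, 27.2 and 23.3, so that the order of the 4 sutures for Vwf was the same in all 4 sets. Emcn ran from 46.3 to 55.9 CPM in the frontal and from 20.6 to 26 in the coronal suture, and Tek from 42.6 to 51.7 and from 21.6 to 30.2, each highest in frontal and lowest in coronal in all 4 sets. Pecam1 (58.0 to 75.3 CPM over the 16 libraries) and Kdr (53.2 to 76.2) differed by at most 1.30-fold and 1.29-fold between sutures of any set, and Cdh5 (99.2 to 146) by at most 1.38-fold. Other genes moved with the set: Plvap ran from 7.89 to 12.1 CPM in sets C and S and from 2.46 to 4.70 in sets IF and L, and Egfl7 from 32.9 to 51.4 and from 25.7 to 36.5. Gpihbp1 likewise ran from 11.6 to 20.1 CPM in sets C and S and from 5.32 to 12.2 in sets IF and L. Cldn5 was lowest in the coronal suture in all 4 sets (0.752 to 3.87 CPM). Gpihbp1 had another order, with the frontal suture lowest in sets C, IF and L (11.6, 5.32 and 5.89 CPM). The coronal suture was its highest in sets IF and L (12.2 and 10.5 CPM). Summed over the 10, the frontal suture had 536 to 550 CPM and the coronal 333 to 375; without Vwf the sums were 417 to 454 and 321 to 367. Sets C and S were also deeper, with 14088921 to 15155332 counts a library, than sets IF and L, with 8903413 to 11621958.

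**Figure D4:**
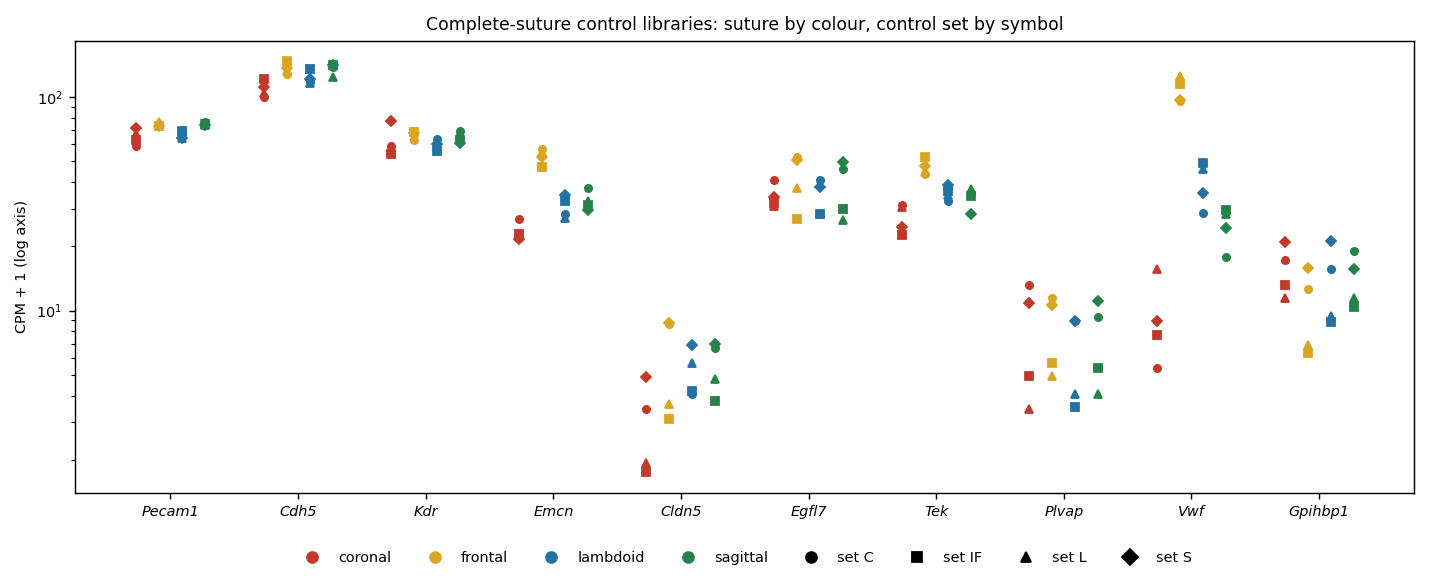
CPM of the 10 genes (vertical axis, log scale) in the 16 complete-suture controls of E18.5, by suture (horizontal axis) and control set (markers). Vwf is highest in the frontal and lowest in the coronal suture in each of the 4 sets, and Plvap separates sets C and S from IF and L.

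In the single-cell libraries of the coronal suture, cells with many other endothelial genes were set against cells with none. Ages here follow the labels, although the deposited names of the E18.5 matrices carry the earlier age, and no doublets were called or removed. Over 800 detected genes were required of a cell, which left 497 and 359 cells in the libraries of E16.5 and 2625 and 1624 in those of E18.5, and these were split by the other 20 endothelial genes, not by the 10. The numbers for the libraries labelled E18.5 equal the final cell numbers that the paper gives for that age. For E16.5 the paper gives higher final numbers than were kept here. At the planned split, 3 or more of the 20 with a UMI, the class held 45, 53, 785 and 214 cells, but in the E18.5 libraries 465 and 131 cells sat exactly at the limit, so a stricter split of 9 or more was added after the data were seen, which held 31, 24, 52 and 30 cells. Cells with none of the 20 numbered 284, 231, 233 and 482, and the 182, 104, 2340 and 1112 cells between belong to neither class. In those between, Pecam1 had 9.22, 99.4, 2.36 and 5.18 CPM and Cdh5 7.68, 127, 7.11 and 8.95. In the first E16.5 library Pecam1 had 685 CPM in the cells with 9 or more and 2.5 in those with none, Cdh5 1155 and 2.5, Kdr 616 and 1.25, and Plvap 624 and 1.25, while Emcn, Cldn5 and Gpihbp1 (531, 508 and 747) had no UMI in the cells with none, with a limit of 3 UMIs in 801342. Egfl7 had 1347 and 7.49 CPM there. In the first E18.5 library Pecam1 had 515 CPM (95% Poisson interval 481 to 551, for counting error only) and 2.85, and Gpihbp1 940 and 4.14; in the second, Pecam1 had 868 and 6.25, and Gpihbp1 1013 and 8.80. All 10 genes were far higher in the class with 9 or more than in the cells with none in both E18.5 libraries. Of 10 pericyte genes, 3 and 6 were higher in the class than in the cells with none in the E16.5 libraries, and 8 and 2 in the E18.5 libraries. Abcc9 and Mcam were higher in all 4 libraries and Cspg4 lower in all 4. Summed over the list, the class had 339, 772, 753 and 317 CPM and the cells with none 207, 212, 93.9 and 181. In the first E18.5 library Rgs5 was the highest of the list in the class (220 CPM against 2.85 in the cells with none), and in the second it was Mcam (269 against 3.69). The part of doublets in these values was not tested.

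Tek and Vwf were the low members in single cells. Tek had 139 CPM in the endothelial class and 25 in the cells with none in the first E16.5 library, where 20 UMIs in 4.58% of those cells carried it, while in the second E16.5 library it had 200 CPM and none. In the E18.5 libraries Tek had 71.2 and 137 CPM in the class and 0.518 and 1.99 in the cells with none. In the cells between, Tek had 32 UMIs (49.1 CPM) in the first E16.5 library, more UMIs than in the cells with none. It had 21.7 CPM between in the second E16.5 library, and 1.497 and 1.492 in the E18.5 libraries. The part of cells outside the class in the bulk values of Tek was not tested. Vwf had 23.1 and 18.2 CPM in the class in the E16.5 libraries, 52.0 and 52.5 in the E18.5 libraries, and a UMI in 34.6% and 30.0% of the E18.5 class, the lowest shares of the 10. The libraries of the 2 ages differed in chemistry and depth, with a median of 2504 and 2190 UMIs per cell against 18252 and 7204, so no ages are compared, and the 2 E18.5 libraries shared 5 barcodes. Free RNA was not removed, which can raise the values in cells with none. Those cells were chosen for lacking the 20 other endothelial genes, which can lower the values. They are therefore no limit of expression there. Of the ligands and partners, Lpl, the lipase that Gpihbp1 binds, had 62.4, 106, 34.9 and 13.1 CPM in the cells with none and 7.70, 0, 5.38 and 0 in the class, and the VEGF co-receptor Nrp1 had 254, 236, 354 and 561 CPM in the class and 48.7, 20.1, 93.9 and 36.6 in the cells with none.

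**Figure D5:**
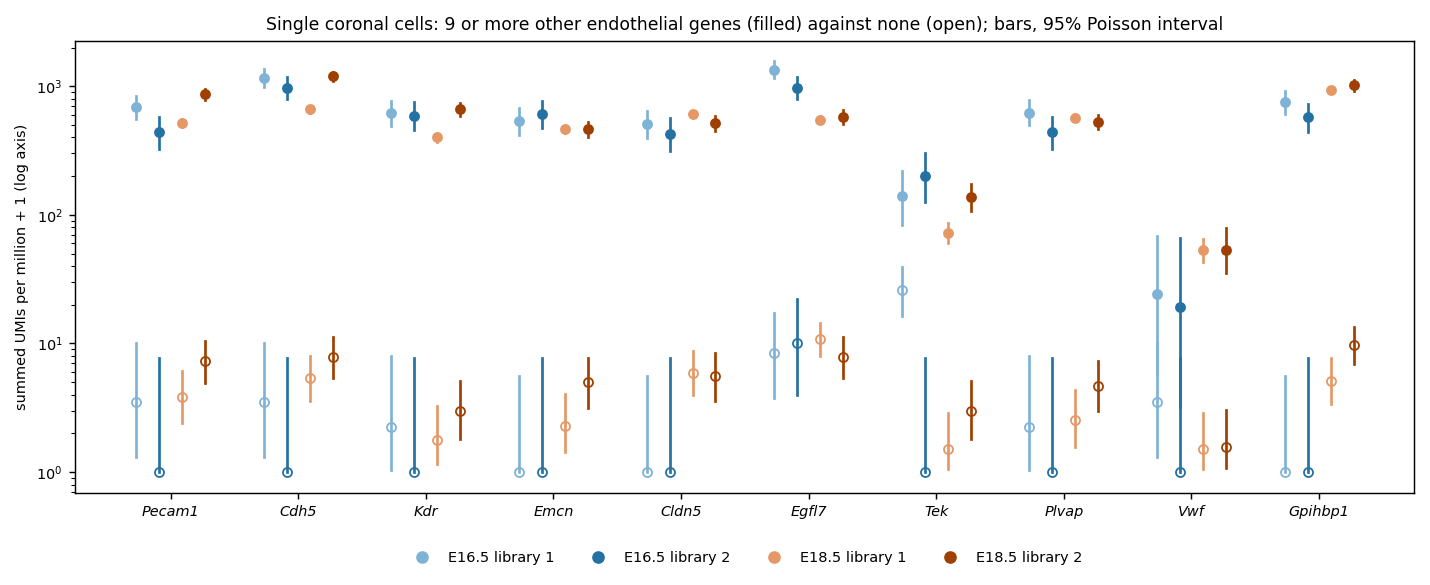
CPM of the 10 genes (vertical axis, log scale) in coronal suture cells that had a UMI of 9 or more of 20 other endothelial genes and in cells with none, for each of the 4 single-cell libraries. All 10 genes are higher in the first class in each library, and Tek in the first library of E16.5 is the member with the highest level outside it.

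The ligands and partners of the receptors were measured in the captured regions as well, and moved in both directions. Angpt1, the activating ligand of Tek, was lower in SM than in OF over all sutures by -2.47 (SE 0.11, edgeR adjusted p = 2.57e-29), by -2.91 (SE 0.30, adjusted p = 5.22e-12) in the lambdoid suture at E16.5, where Tek was higher, and by -2.67 (SE 0.31, adjusted p = 1.04e-09) against the coronal parietal OF at E18.5, where Tek was higher in the shared fit but not called with the suture alone or in the second libraries. Angpt2, its other ligand, stood at -0.03 (adjusted p = 0.779) over all sutures. Vegfa, the main ligand of Kdr, stood at 0.09 (adjusted p = 0.172) over all sutures and 0.24 (adjusted p = 0.238) in the lambdoid suture at E16.5, and was lower in SM than in coronal parietal OF at E18.5 by -0.62 (adjusted p = 0.00502), where Kdr was higher. Nrp1 was higher in SM by 0.44 (adjusted p = 6.04e-07) over all sutures and by 1.34 against that parietal OF. Lpl was higher in SM by 0.85 (adjusted p = 3.91e-07) over all sutures, and by 1.2 in the lambdoid suture at E16.5, where Gpihbp1 was lower. Of the list of 12, 2 were called higher and 3 lower in lambdoid SM at E16.5 (10.3% and 13.4% of all genes), and 3 each way against the coronal parietal OF, where 17.9% of all genes were called.

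Genes of the pericyte, macrophage and arterial lists moved with some of these results. Arterial genes are themselves endothelial: they summed to 314 and 340 CPM in the endothelial class of the E18.5 single-cell libraries. In the cells with none they summed to 16.3 and 14.2. Of the pericyte genes named next, Abcc9 and Mcam were higher in the endothelial class in every single-cell library. Against the coronal parietal OF at E18.5, SM was higher in 5 of 10 pericyte genes, led by Rgs5 (2.21), Abcc9 (1.56) and Mcam (1.46), and lower in Cspg4 (-1.44), and it was higher in 4 of 6 macrophage genes and 3 of 5 arterial genes, with Bmx (5.28) and Gja5 (5.23) the furthest. Summed pericyte genes ran from 768 to 1126 CPM in that SM and from 676 to 1016 in the parietal OF, where Vtn was at 0 in all 5 libraries. Summed macrophage genes ran from 160 to 213 CPM in SM and from 72.0 to 129 in parietal OF, and summed red cell genes from 75.8 to 263 and from 42.4 to 136. The part of these cells in the result was not tested. The lymphatic receptor Flt4, which blood vessels also use in the embryo, was higher in that SM by 1.75 and lower in lambdoid SM at E16.5 by -1.46.

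The 10 genes did not form 1 uniform block. Over the 20 group means, Kdr was the member most like the other 9 (r = 0.912 with the mean of their standardised levels), followed by Plvap (0.862), Pecam1 (0.821) and Cdh5 (0.793), while Tek (0.578), Cldn5 (0.469) and Gpihbp1 (0.379) were least alike. The 45 pairs had a median r of 0.552, from -0.05 to 0.929. Within groups, over the residuals of 100 libraries, Cdh5 (0.766), Kdr (0.750) and Pecam1 (0.744) led, Gpihbp1 (0.364) and Tek (0.353) came last, and the median pair had 0.318. Among the genes that were no member, those most like the mean of the 10 over group means were Tie1 (r = 0.967), Abcb1a, Cavin2, Gimap5, Ushbp1, Fgd5, Itga6, Col18a1, Ccm2l and Esam (0.852), and over residuals Tie1 (0.762), Cd93, Pcdh1, Col4a1, Aplnr, Esam, Arap3, Robo4, Sox7 and Cav1 (0.644). Tie1, the orphan relative of Tek, led both. These correlations describe 20 groups that share embryos, library sets and depth within a suture, or 100 libraries that share embryos, and have no test.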

How the data were processed

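Of 134 bulk libraries of wild-type C57BL/6J sutures, 118 came from laser-captured regions and 16 from complete sutures, and dissected coronal sutures gave 4 single-cell libraries. Per the labels and the study's methods, the authors amplified the RNA (Ovation V2), made Nextera XT libraries, trimmed reads with cutadapt, aligned them to mm10 with STAR 2.5.3a and counted them per gene, without strand, with featureCounts 1.6.4; the deposited values are raw counts, and the deposited single-cell matrices hold UMI counts. A deposited table of log2 ratios holds the authors' own comparisons and was not used. Symbols were found for 55394 of 55487 gene IDs.

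A gene was tested if it reached 1 CPM in more than 10% of the first libraries, of which there were 100. SM and OF, and the OFs with each other, were compared with edgeR 4.0.16 (R 4.3.3) in the quasi-likelihood test with TMM scaling, 1 term per embryo and all 100 libraries, and stages in a model of group means. P-values are two-sided, Benjamini-Hochberg adjusted over all genes tested, and called at 0.05. SM less OF within a suture and age means SM less the mean of its OFs, and regions were paired because the labels give the regions of 1 embryo a shared litter label. Several embryos of a group shared the stem of that label, as at lambdoid E16.5 and sagittal E16.5, and may be littermates. No litter term was fitted, so the stage tests treat such embryos as independent. The residuals of 2 regions correlated with a median r of 0.05 where they came from 1 embryo (80 pairs) and of -0.01 where they came from different ones (320 pairs). No 2 libraries were identical, and 0 of 200 replicate pairs agreed within sampling noise. RPKM used the joined exon length. Levels are TMM-scaled CPM, with SDs over 5 embryos; counts of 0 and Poisson intervals cover counting error only.

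The members, the other lists and the alternatives were chosen with earlier results of these data known. All 10 members were tested in every comparison; of other lists up to 3 called genes per direction with the largest difference are named, and Vegfa, Angpt1, Angpt2, Nrp1 and Lpl in any case, and the 10 genes most like the members. Alternatives were DESeq2 1.42.0, limma-voom (limma 3.58.1), median-ratio size factors, no low-count filter, no embryo term or a replicate block, leaving out each replicate number, and the second coronal libraries in place of the first of the same regions and embryos, which left 12 first coronal libraries in that fit. Fits of each suture alone, a fit with only the second coronal libraries (88 libraries in all), comparisons of SM with each OF by age and the stricter split of cells were added after the data were seen. On simulated data the test recovered 93 of 100 genes changed 4-fold and 20 of 100 changed 2-fold for lambdoid E16.5, over 4000 genes, and 80 and 19 for the sagittal parietal OF by stage. The simulation gave all genes and sutures the same dispersion, so these rates do not describe the power for single members or for sutures of different spread.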

Additional observations from a re-analysis of the deposited data

Results flagged for a closer look

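Of 200 sets of a gene and a group of 5 libraries, 22 had 1 library far from the other 4 by Dixon's ratio, where chance gives about 1 in 20. In the coronal suture at E16.5 these were Pecam1 in frontal OF replicate 3 (48.0 CPM, high) and Vwf in parietal OF replicate 1 (5.80, high). In the coronal suture at E18.5 they were, in SM, Emcn in replicate 4 (18.4 CPM, low), Tek in replicate 1 (20.4, high), Vwf in replicate 2 (0.312, low) and Gpihbp1 in replicate 3 (8.93, high). In the frontal OF of that suture and age Kdr (27.9 CPM) and Tek (7.72) were both low in replicate 2, and in the parietal OF Cldn5 was high in replicate 3 (0.486). In the frontal suture at E18.5 the SM replicate 2 was low for Pecam1 (29.5 CPM), Kdr (18.6) and Emcn (19.5), and the OF was low for Cdh5 in replicate 2 (36.1) and for Egfl7 in replicate 5 (3.75). In the lambdoid suture at E16.5 Cldn5 was high in SM replicate 4 (1.58 CPM) and in parietal OF replicate 4 (2.14), Kdr (53.8) and Vwf (3.87) were high in interparietal OF replicate 4, and Egfl7 in replicate 3 (22.7) and Vwf in replicate 2 (18.3) were high in parietal OF. At lambdoid E18.5 Cldn5 was high in parietal OF replicate 3 (2.22 CPM), and at sagittal E18.5 Egfl7 was low in SM replicate 4 (12.9).

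The effect of region differed between sutures or ages, by a test of the difference itself, in these members. Between the coronal suture and the mean of the others it differed by 0.92 on the log2 scale for Pecam1, 0.60 for Cdh5 and 1.26 for Kdr. It differed by 0.92 for Emcn, 0.76 for Egfl7 and 1.22 for Plvap. That test called 3955 of 19768 genes, and 2 to 5 of the 10 in fits without 1 replicate. Between E18.5 and E16.5 it differed by 1.68 for Gpihbp1 in the coronal suture (edgeR adjusted p = 0.0426, with 6% of genes called). With that suture alone, 0 of the 10 passed. In the lambdoid suture the change was 1.44 for Cdh5 and 1.95 for Kdr, where 49 of all genes were called. Limma-voom called neither of them there.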

How the results depend on the processing

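Counts below are of the 10 genes called, beside the count reported first. The calls over all genes moved with the setting as well, so these counts are not results about the 10 alone. For SM less OF at coronal E16.5, edgeR called 6943 of 19768 genes, DESeq2 8564 and the suture alone 3111. At sagittal E16.5 they called 3643, 4106 and 8451, and limma-voom 4203. For the change with age in the lambdoid suture they called 49, 127 and 307, and limma-voom 9. SM less OF at coronal E16.5 (2) gave 4 with DESeq2 and 4 with no low-count filter, and 1 with the suture alone; at coronal E18.5 (4) it gave 7 with limma-voom and 2 with the suture alone. At sagittal E16.5 (1) it gave 3 with DESeq2, 0 with limma-voom, 2 with median-ratio size factors, 4 with no filter and 5 with the suture alone, and at sagittal E18.5 (0) 1, 1 and 6 with limma-voom, no filter and the suture alone. No filter gave 1 for 0 at frontal E16.5, frontal E18.5 and lambdoid E18.5, limma-voom 1 at frontal E16.5, and the suture alone 1 at lambdoid E18.5. The change of SM less OF with age gave 0 for 1 in the coronal suture with no filter, the second libraries in place of the first or the suture alone; in the lambdoid suture (2) 5 with DESeq2, with no filter and with the suture alone, 0 with limma-voom, and 1 with no replicate block; in the sagittal suture (0) 1 with no filter and 5 alone. By stage, coronal SM (1) gave 4 with limma-voom, 2 with the replicate block, and 0 with the second libraries, where Gpihbp1 was reversed at -0.075, or the suture alone; coronal frontal OF (4) gave 1 with the second libraries and 2 alone, frontal SM (1) 3 alone, frontal OF (1) 0 with median-ratio and 2 alone, lambdoid SM (6) 1 with limma-voom, and sagittal SM (1) 2 with DESeq2, 0 with limma-voom and 7 alone. Between OFs, coronal E16.5 (1) gave 3 with DESeq2, 2 with no filter, and 0 with the second libraries or alone, coronal E18.5 (9) 4 alone, and lambdoid E16.5 (0) 1 with no filter. SM against the coronal E16.5 frontal OF (3) gave 5 with limma-voom, 5 with no filter, 1 with the second libraries and 0 alone, and against its parietal OF (1) 2 with DESeq2, 3 with limma-voom, 2 with no filter, 4 with the second libraries and 0 alone. Against the coronal E18.5 parietal OF (10) the suture alone gave 5, and against the lambdoid E18.5 interparietal and parietal OFs (0) 1 alone and 1 with no filter. With only the second libraries for the coronal suture, SM less OF at E16.5 gave 5, coronal SM by stage 2, coronal frontal OF by stage 0, OF less OF at E16.5 0, and SM against the E16.5 frontal OF, the E16.5 parietal OF and the E18.5 frontal OF 0, 5 and 1. Counting tests with a call in either fit, it turned the direction of Tek in SM less OF at E16.5 (0.95), at E18.5 (-0.87) and in its change with age (-1.83), and by stage in SM that of Tek (-1.999), Cldn5 (-2.44) and Gpihbp1 (-0.31); over all, 34 of 150 differences of single members changed sign. The cells in the endothelial class were 6.24%, 6.69%, 1.98% and 1.85% of the libraries at 9 or more genes, and 7.44%, 13.9%, 4.46% and 2.96% at 5 or more. The cause of these changes was not tested.

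Leaving out 1 replicate number at a time gave, from lowest to highest, SM less OF 0 to 2 over all sutures, 2 to 5 for coronal against the others, 1 to 4 at coronal E16.5, 3 to 5 at coronal E18.5, 7 to 8 at lambdoid E16.5 and 0 to 1 at sagittal E16.5, and 0 to 1 and 1 to 3 for the change with age in the coronal and lambdoid sutures. By stage it gave 0 to 3 in coronal SM, 2 to 5 in coronal frontal OF, 4 to 6 in coronal parietal OF, 0 to 1 in each frontal region, 1 to 6 in lambdoid SM, 0 to 0 in sagittal SM and 6 to 7 in sagittal parietal OF. Frontal less parietal OF gave 0 to 2 at coronal E16.5, 5 to 8 at E18.5 and 5 to 7 over both; SM against single OFs gave 2 to 4 and 0 to 4 at coronal E16.5 (frontal, parietal), 6 to 9 against the coronal E18.5 parietal OF, 5 to 7 and 7 to 8 at lambdoid E16.5 (interparietal, parietal) and 0 to 1 against the lambdoid E18.5 parietal OF. These fits used 80 libraries each, and their calls over all genes are not given. The ranges are thus not results about the 10 alone. Of 380 tests of single members, DESeq2 changed the side of the threshold in 18 and limma-voom in 38. No member called in either fit changed direction. Of differences called in neither, 10 and 11 changed sign. Apart from the counts above, taking the embryo out of the region fits or adding a replicate block to the stage fits left counts within 1.5 times. Median-ratio size factors moved the median of all genes in lambdoid E16.5 from 0.01 to 0.14 on the log2 scale. Standard errors were largest for Cldn5, Plvap and Vwf in every comparison. Cldn5 was at 0 in 8 libraries and Vwf in 17, while Vwf also varied where its counts were high, from 242 to 1913 in frontal SM at E16.5.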
